A study of Mus musculus with 6 samples.

Results

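Muc2, Fcgbp, Clca1, Zg16, Tff3, Agr2, Spink4, Muc13 and Muc3, 9 genes of colonic mucus and its goblet cells, were followed by symbol through 6 single-cell libraries of mouse colon, among 32285 genes in all. They were chosen by name, with earlier results of these data known. Each library held cells sorted for CD45, a surface protein of immune cells, after the epithelium had been stripped with EDTA, so the epithelial cells described here are those that remained in the sort. The wild-type mice were either pseudo germ-free (pGF), made so by 4 weeks of antibiotics, or specific pathogen free (SPF). The pGF libraries came from mice at the end of the 4 weeks (day 0) and after 2 or 7 further days of antibiotics together with dextran sodium sulfate (DSS), a polymer that injures the colonic epithelium. The SPF libraries came from control mice (day 0) and from mice given DSS alone for 2 or 7 days. The labels give no age, sex or number of mice per library, and pGF mice differ from SPF mice in the antibiotics as well as in their flora.

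Each group was 1 library, so every difference given here is one between single libraries, with no replicate behind it. The pGF libraries held 32870737, 52772901 and 23335071 unique molecular identifiers (UMIs, one per captured RNA molecule) at days 0, 2 and 7, and the SPF libraries held 43949679, 37169685 and 46830975. A cell was taken as epithelial with at least 1 UMI of Epcam and at least 2 of Krt8. That gate held 101, 1017 and 43 kept cells in pGF and 125, 738 and 5 in SPF at days 0, 2 and 7, 2029 of 29130 kept cells in all. Comparisons across genes were made where both libraries had at least 50 such cells, which held for days 0 and 2. At day 7 the doublet filter had removed 44.9% of epithelial cells in pGF and 90% in SPF, against 0% to 9.12% at days 0 and 2, so day 7 levels are given with those cells kept, from 78 pGF and 50 SPF cells. All 11 epithelial markers were found in the gate in each library used. Epcam and Krt8 define the gate, so their presence was fixed in advance and says nothing of its purity. Levels in CPM are UMIs summed over gated cells and scaled to a common total. Plasma cell markers summed to 535 and 98.7 CPM in pGF and 3755 and 990 CPM in SPF at days 0 and 2. Markers of T or natural killer cells summed to 0 and 82.3 CPM in pGF and 34.7 and 8.13 CPM in SPF. Ptprc, the gene of CD45, was found in 1.98% and 20.2% of gated cells in pGF and 8.8% and 8.54% in SPF at days 0 and 2. Any 2 libraries shared between 5 and 131 cell barcodes.

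The colonic mucus layer is built on Muc2, a gel-forming mucin that goblet cells store in granules and release onto the epithelium. Goblet cells fold it with the help of Agr2, a protein disulfide isomerase, and release with it Fcgbp (a mucus protein with von Willebrand domains), Clca1 (a metalloprotease of mucus), Zg16 (a lectin that binds Gram-positive bacteria), Tff3 (a trefoil peptide of epithelial repair) and Spink4 (a Kazal-type protein that resembles protease inhibitors). Muc13 and Muc3 are membrane-anchored mucins of the brush border, where they form the glycocalyx of enterocytes. DSS thins the mucus layer, and the flora is known to shape it.

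RefSeq (GRCm38.p6) places Muc2 at chr7:141690340-141754691 and Fcgbp at chr7:28071236-28120864 on the plus strand, Zg16 at chr7:127050156-127052675 on the minus strand, Clca1 at chr3:145004537-145032776 on the minus strand and Tff3 at chr17:31125306-31129611 on the minus strand. Agr2 lies at chr12:35992925-36004081, Spink4 at chr4:40920056-40931395 and Muc13 at chr16:33794037-33819929 on the plus strand, and Muc3 at chr5:137134924-137166048 on the minus strand. The 250 bases before the start of Muc2 and Fcgbp (UMIs in few cells), Agr2 (more cells) and Muc13 (most cells) are printed 5′ to 3′ because these 4 genes span the range of cell patterns described next. Capitals mark the letters TATAAA (the promoter box of that sequence), CAGCTG (an E-box, the kind of element bound by basic helix-loop-helix factors), TTTATG (CDX-type), TGTTTAC (forkhead-type) and AGATAA (the kind bound by zinc-finger factors of the GATA family), searched on both strands.
Muc2 promoter, chr7:141690090-141690339, plus strand: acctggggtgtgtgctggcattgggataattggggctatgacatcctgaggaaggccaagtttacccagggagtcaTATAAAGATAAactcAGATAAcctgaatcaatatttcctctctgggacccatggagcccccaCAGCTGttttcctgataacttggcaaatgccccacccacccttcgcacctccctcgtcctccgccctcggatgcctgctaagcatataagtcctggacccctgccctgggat
Fcgbp promoter, chr7:28070986-28071235, plus strand: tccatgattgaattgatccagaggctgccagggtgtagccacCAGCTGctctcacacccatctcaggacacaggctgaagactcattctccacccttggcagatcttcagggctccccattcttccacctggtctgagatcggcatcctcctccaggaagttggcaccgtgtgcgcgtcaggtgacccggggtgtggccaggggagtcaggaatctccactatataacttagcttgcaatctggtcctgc
Agr2 promoter, chr12:35992675-35992924, plus strand: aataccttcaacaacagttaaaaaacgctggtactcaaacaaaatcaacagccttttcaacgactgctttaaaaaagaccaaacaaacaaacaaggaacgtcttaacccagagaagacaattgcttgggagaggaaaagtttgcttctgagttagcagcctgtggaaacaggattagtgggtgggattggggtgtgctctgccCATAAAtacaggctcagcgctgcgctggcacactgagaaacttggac
Muc13 promoter, chr16:33793787-33794036, plus strand: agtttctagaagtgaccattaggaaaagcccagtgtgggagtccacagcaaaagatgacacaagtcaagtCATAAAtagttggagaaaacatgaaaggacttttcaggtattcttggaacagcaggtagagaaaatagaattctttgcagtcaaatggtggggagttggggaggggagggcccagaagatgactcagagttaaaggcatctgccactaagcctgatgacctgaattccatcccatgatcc
In the Muc2 window the search found TATAAA, 2 copies of AGATAA (the first shares its opening A with the last A of TATAAA) and CAGCTG. The Fcgbp window held CAGCTG, and the Agr2 and first Muc13 windows each held CATAAA, the reverse complement of TTTATG. Among 32851 RefSeq windows of the same length, TATAAA was found in 12.4%, CAGCTG in 13.0%, TTTATG in 10.8%, AGATAA in 9.99% and TGTTTAC in 3.17%. These are matches of letters and not sites of binding. Muc13 has 2 annotated starts, of which the first is shown.

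The members fell into 2 patterns across epithelial cells. Muc13 was found in 94.1% and 90.7% of gated cells in pGF and 91.2% and 94.6% in SPF at days 0 and 2, and Muc3 in 83.2% and 76.2% in pGF and 80% and 86.9% in SPF. Muc2 was found in 15.8% and 19.3% in pGF and 8% and 15.6% in SPF. Most of those cells had few Muc2 UMIs: the 10% of cells richest in a gene held 99.7% to 100% of Muc2 UMIs over these 4 libraries, and 96.3% to 100% of the UMIs of Fcgbp, Clca1, Zg16, Tff3 and Spink4. For Muc13 and Muc3 they held 23.1% to 34.2%. Agr2 lay between, at 80.4% to 91.5%, and was found in 48.5% and 66.6% of pGF and 44% and 57.7% of SPF cells at days 0 and 2.

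The split was also seen at equal depth. With cells thinned to 1000 UMIs and shallower cells left out (0 and 13 in pGF, 5 and 23 in SPF at days 0 and 2), Muc13 was found in 54.5% and 44.9% of pGF cells and 50.8% and 58.5% of SPF cells at days 0 and 2, and Muc2 in 9.9% and 10.6% of pGF cells and 5.83% and 7.55% of SPF cells. In T-like cells, which should lack both genes, the thinned share for Muc13 was 0.56% in pGF at day 2 and 0% in the other 3 libraries, where a count of 0 allows up to 2.11% in pGF at day 0, and 1.29% and 0.938% in SPF at days 0 and 2. For Muc2 it was 0% (up to 2.11%) and 2.35% in pGF and 0.429% and 1.25% in SPF. Median depth was 31622 and 24169 UMIs per epithelial cell in pGF and 31283 and 18578.5 in SPF. Since T-like cells are shallower (median 3012 to 5226.5 UMIs in these libraries), the thinned shares are the ones to compare between cell types.

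Cells with at least 10 Muc2 UMIs per 10000 are called Muc2-high here, a line drawn after the values were seen. They were 11 of 101 epithelial cells (10.9%, 95% Clopper-Pearson interval 5.56% to 18.7%) in pGF and 7 of 125 (5.6%, 2.28% to 11.2%) in SPF at day 0. At day 2 they were 95 of 1017 (9.34%, 7.62% to 11.3%) in pGF and 48 of 738 (6.5%, 4.83% to 8.53%) in SPF. The intervals of the 2 arms overlap at both days, and they cover counting error only. The line fell in a sparse range: 1 and 6 cells in pGF and 0 and 7 in SPF at days 0 and 2 had between 5 and 20 Muc2 UMIs per 10000.

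Muc2-high cells carried the goblet genes that had no part in choosing them. They held 95.9% to 99.1% of Fcgbp, 97.3% to 98.6% of Clca1, 94.9% to 98.7% of Spink4, 86.2% to 92.1% of Tff3 and 73.7% to 86.5% of Agr2 UMIs over the 4 libraries. For Zg16 the share was 94.2% and 97.5% in pGF and 77.5% and 96% in SPF at days 0 and 2. Spdef and Atoh1, transcription factors of the secretory lineage, had 86.4% to 100% of their epithelial UMIs there, whereas the absorptive colonocyte genes Car1, Krt20 and Slc26a3 had 0% to 2.01%. Muc13 had 5.67% to 7.91% there, against 5.6% to 10.9% of the gate's cells (6.24% of UMIs against 10.9% of cells in pGF at day 0), and Muc3 0.137% to 1.24%. Muc13 was present in both Muc2-high and other epithelial cells, and Muc3 was scarce in Muc2-high cells.

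**Figure D1:**
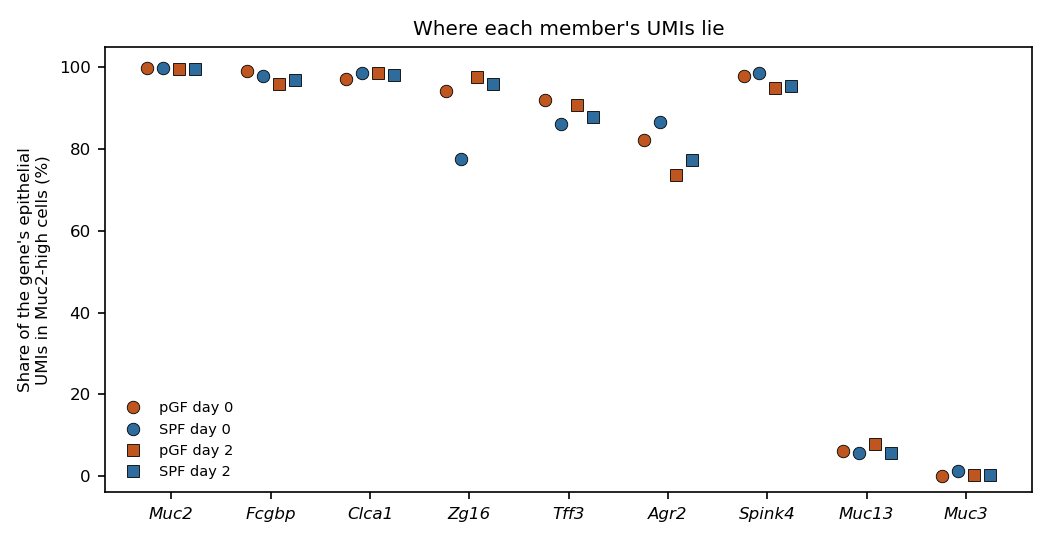
Share of each member's UMIs in epithelial cells (%, vertical axis) that lay in Muc2-high cells, for pGF and SPF at days 0 (circles) and 2 (squares). Spink4, Clca1 and Fcgbp lie at 94.9% or above, and Muc13 and Muc3 at 7.91% or below.

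Among Muc2-high cells the other goblet genes again split into 2 sets. In the 95 cells of pGF day 2, Fcgbp, Clca1, Zg16 and Tff3 were correlated with each other at Pearson r of 0.77 to 0.89 (log of UMIs per 10000, 6 pairs). In the 48 cells of SPF day 2 the same 6 pairs had r of 0.61 to 0.87. Agr2 and Spink4 were correlated with each other at r of 0.68 in pGF and 0.66 in SPF. Across the 2 sets r ran from -0.60 to -0.14 in pGF and from -0.13 to 0.16 in SPF. Depth was not held equal between these cells. In pGF day 2 several cells rich in Zg16 were shallow, such as one of 2582 UMIs with 1367 Zg16 and 0 Agr2 per 10000. A cell of 34955 UMIs had 314 Agr2 and 0 Zg16 per 10000. Another rich in Zg16, with 26.0 Agr2 per 10000, had 25343 UMIs. The part of depth in these r values was not tested. Muc2 itself had r of -0.23 to 0.04 in pGF and -0.34 to 0.25 in SPF with the genes of the 2 sets. These cells were chosen for high Muc2, which narrows its range and by construction lowers its r. The values therefore cannot tell how Muc2 is related to either set, and its r over all epithelial cells is given below. The sets were drawn from these values, cells of 1 library are not replicates, and each r is a description of cells that share a library and its free RNA.

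**Figure D2:**
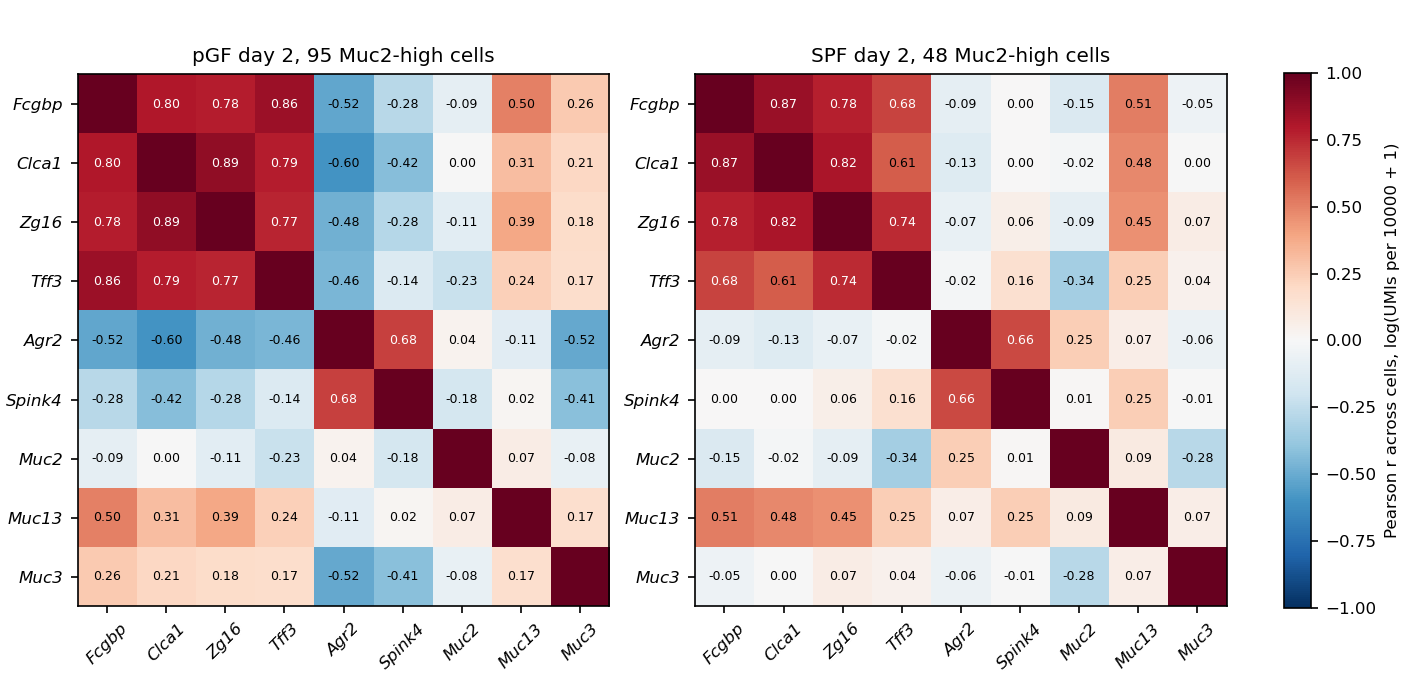
Pearson r between members across Muc2-high cells of pGF day 2 (left, 95 cells) and SPF day 2 (right, 48 cells), by colour and number, on the log of UMIs per 10000 plus 1. Fcgbp, Clca1, Zg16 and Tff3 form a block with r of 0.61 or more in both libraries, and Agr2 and Spink4 a pair with r of 0.66 or more.

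Some single cells show the split, and others were high in both sets. The pGF day 2 cell with the most Muc2 had 758 Muc2, 1564 Zg16, 412 Fcgbp, 322 Clca1 and 221 Tff3 UMIs per 10000, but 26.0 of Agr2 and 5.13 of Spink4. The next cell of that library had 607 Muc2 and 314 Agr2 UMIs per 10000 with 0 of Zg16 and Tff3, 1.14 of Fcgbp and 0.572 of Clca1. In SPF day 2 the cell with the most Muc2 had 705 Muc2, 139 Agr2 and 156 Spink4 UMIs per 10000 with 0 of Fcgbp, Zg16 and Tff3. Other cells had both sets. One of pGF day 2 had 1282 Zg16, 512 Tff3, 588 Spink4 and 67.1 Agr2 UMIs per 10000. One of SPF day 2 had 1096 Zg16, 493 Tff3, 445 Spink4 and 204 Agr2 UMIs per 10000. High Muc2 occurred with and without the Zg16 and Fcgbp set.

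Over all epithelial cells, the genes whose levels followed Muc2 most closely were Ramp1 (a receptor activity modifying protein) at a mean Pearson r of 0.84, Tpsg1 (a serine protease) at 0.83 and Spdef at 0.83, ranked over 9559 genes in the 4 libraries. Slc12a8 (a transporter), Qsox1 (a sulfhydryl oxidase), Ccl6 (a chemokine), Rep15 (an effector of Rab15), Rap1gap (a GTPase-activating protein), Sytl2 (a synaptotagmin-like protein) and Bace2 (an aspartyl protease) followed, at 0.73 to 0.81. Spink4 was at a like r of 0.83, Fcgbp at 0.74, Agr2 at 0.68, Clca1 at 0.64, Tff3 at 0.62 and Zg16 at 0.45. Muc13 was at -0.03 and Muc3 at -0.43.

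The level of each member is given as CPM, its UMIs summed over the epithelial cells of a library and scaled to a common total. In such sums, fewer goblet cells and less RNA per goblet cell cannot be told apart. Muc2 had 2017, 1493 and 891 CPM in pGF at days 0, 2 and 7, against 1178, 1991 and 2468 CPM in SPF. Agr2 had 1067, 1439 and 758 CPM in pGF, against 1175, 1238 and 707 CPM in SPF. Spink4 had 3923, 2692 and 1115 CPM in pGF, against 2232, 1826 and 845 CPM in SPF. Spink4 was higher in the pGF library at each day in these sums, but its median per Muc2-high cell was lower in pGF, at 73.4 UMIs per 10000 against 176 in SPF at day 0 and 114 against 196 at day 2. In cells with no UMI of Epcam or Krt8, its free level was 0.869, 20.3 and 0.903 CPM in pGF at days 0, 2 and 7. In SPF it was 1.201, 24.2 and 2.53 CPM. The day 0 values rested on 4 UMIs in pGF and 12 in SPF. The counting interval of the log2 ratio spanned 0 at day 0 (-2.56 to 1.26) and day 2 (-0.54 to 0.04), but not at day 7 (-2.42 to -0.66). A single cell held many of the SPF day 2 UMIs. T-like cells had 18.0 CPM in pGF and 11.5 CPM in SPF at day 2, and 1.07 and 1.37 CPM at day 7. In the sums, Muc2 and Agr2 had no order between the arms that held at every day.

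Zg16 had 483, 1903 and 1240 CPM in pGF at days 0, 2 and 7, against 96.9, 674 and 888 CPM in SPF. Tff3 had 544, 637 and 305 CPM in pGF, against 84.5, 465 and 554 CPM in SPF. The pGF library was the higher one for Zg16 at all 3 days and for Tff3 at days 0 and 2. The day 7 order of Zg16 depends on keeping doublets. With doublets removed it had 1912 CPM in pGF (43 cells) and 4449 CPM in SPF (5 cells). With doublets kept, 3 of 78 pGF and 3 of 50 SPF cells had at least 10 Zg16 UMIs per 10000. Fcgbp had 181, 270 and 446 CPM in pGF, against 508, 282 and 646 CPM in SPF. Clca1 had 126, 190 and 416 CPM in pGF, against 856, 214 and 27.7 CPM in SPF. Muc13 had 863, 680 and 684 CPM in pGF, against 907, 994 and 953 CPM in SPF, and Muc3 had 1581, 1289 and 1155 CPM in pGF, against 1524, 2420 and 1034 CPM in SPF. Muc13 stayed between 680 and 994 CPM in all 6 libraries.

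**Figure D3:**
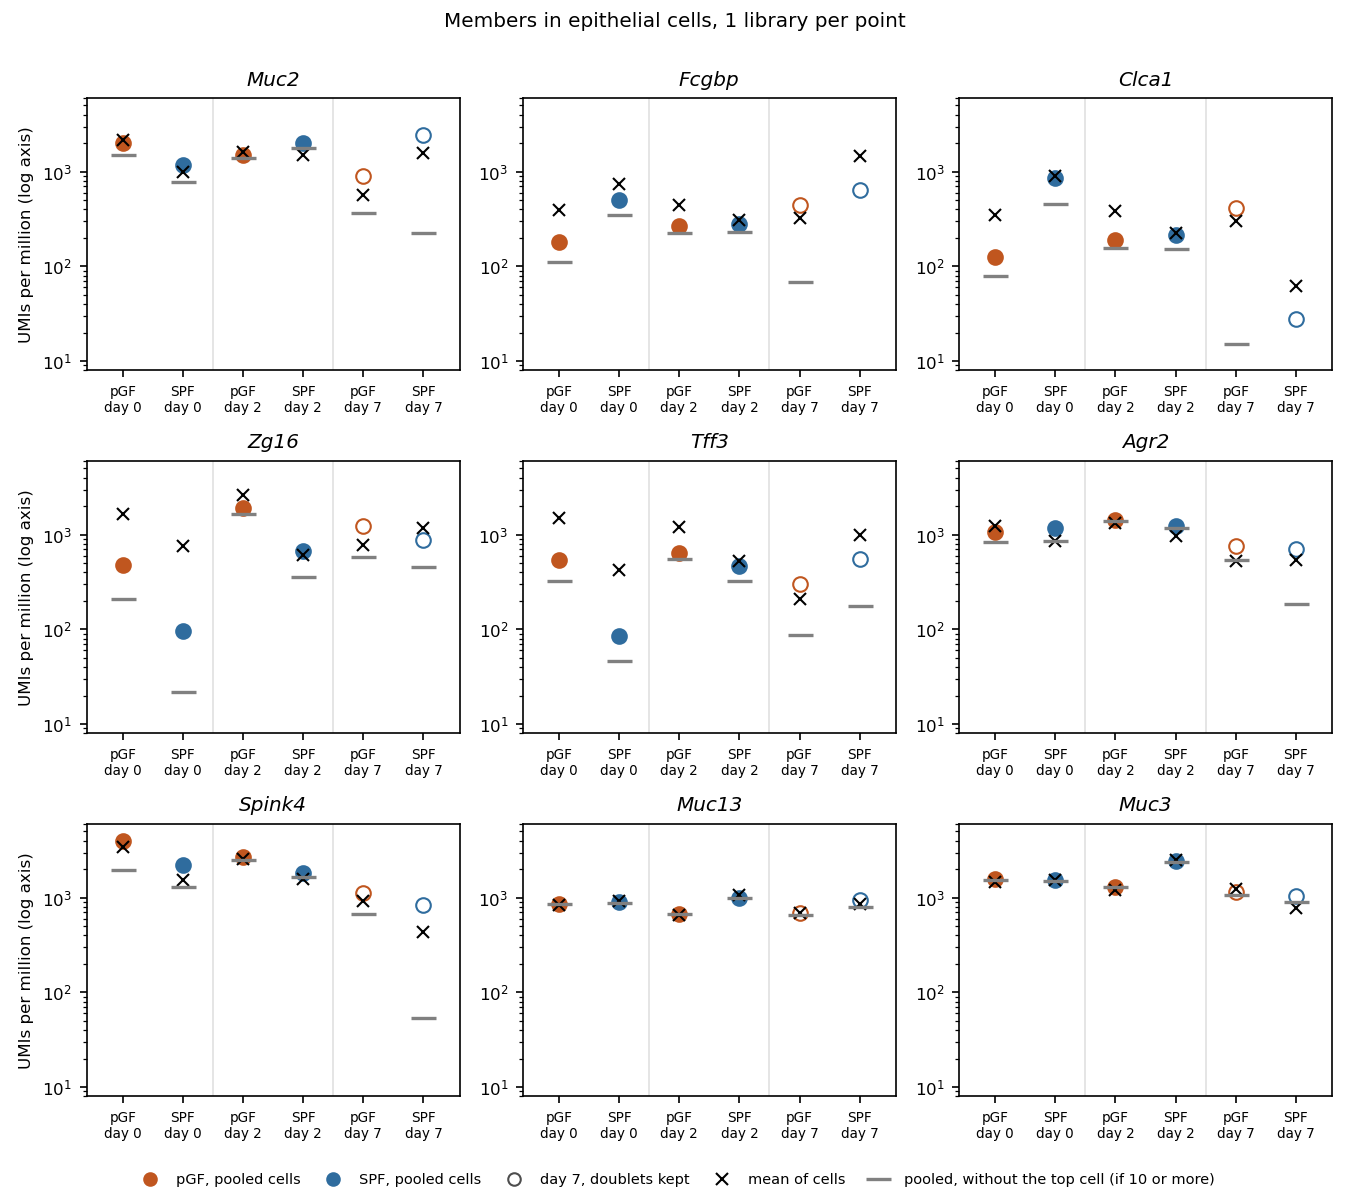
Level of each member in epithelial cells (CPM, log axis), with pGF left of SPF at each day. Circles pool all cells (open at day 7, where doublets were kept), crosses average the cells' own levels, and bars leave out the cell richest in the gene, where that leaves at least 10 CPM. Circles, crosses and bars lie close together for Muc13 and Muc3 and far apart for Zg16 and Tff3 at day 0.

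How many cells stand behind a level differs between the 2 patterns. At day 0, 90% of the UMIs of Muc2, Fcgbp, Clca1, Zg16, Tff3 and Spink4 came from 4 or 5 cells in each arm, against 64 cells in pGF and 71 in SPF for Muc13. At day 2 they came from 19 to 44 cells in pGF and 7 to 29 in SPF, against 597 and 468 cells for Muc13. The counting intervals given with folds below leave out most of the spread of the goblet genes, which lies between cells. At day 7, 1 cell held 59.4% of Muc2 and 96.4% of Clca1 UMIs in pGF, and 1 cell held 91.4% of Muc2 and 100% of Clca1 UMIs in SPF.

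Antibiotic treatment without DSS was compared at day 0. Of the 9 members, all of which passed the filter of 10 CPM in a library of the pair, 2 were at least 2-fold higher in pGF (Zg16 and Tff3) and 2 at least 2-fold lower (Clca1 and Fcgbp), where 0.465% of 8164 genes were that much higher, 1% that much lower and 1.47% either. On the log2(CPM + 10) scale, which understates the change of low genes, Tff3 was higher in pGF by 2.55 (95% counting interval of the CPM ratio 2.51 to 2.86) and Zg16 by 2.21 (2.15 to 2.48). The fold was -2.67 for Clca1 (-2.92 to -2.62) and -1.44 for Fcgbp (-1.62 to -1.35). In the SPF library 1 cell of 3127 UMIs held 77.5% of the Zg16 UMIs, and in the pGF library 1 cell, also the richest in members, held 57.4%. Without the cell richest in members in each library, which in SPF is a cell with no Zg16, the Zg16 fold was 1.02. Averaging the cells' own CPM gave 1638 in pGF and 764 in SPF for Zg16, and 347 in pGF and 899 in SPF for Clca1. Without the 5 cells with most member UMIs, the fold was -1.03 for Clca1 and -0.37 for Fcgbp, so the Fcgbp difference did not pass 2-fold without them, nor with the mean of cells (-0.88). This leaves few goblet cells on either side, since pGF had 11 and SPF 7 Muc2-high cells at day 0. Muc13 and Muc3, with log2 folds of -0.07 and 0.05, were level between the arms.

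DSS for 2 days with and without antibiotics was compared at day 2, where both libraries had many more epithelial cells. Zg16 alone among the 9 members was past 2-fold, higher in pGF by 1.48 (1.46 to 1.53), where 0.491% of 8345 genes were that much higher, 0.791% lower and 1.28% either. It had at least 10 UMIs per 10000 in 58 of 1017 epithelial cells (5.7%, 4.36% to 7.31%) in pGF and in 15 of 738 (2.03%, 1.14% to 3.33%) in SPF. Among Muc2-high cells these were 44 of 95 (46.3%, 36.0% to 56.8%) in pGF and 11 of 48 (22.9%, 12.0% to 37.3%) in SPF. One cell held 47.4% of the SPF Zg16 UMIs, and without the cell richest in members the fold was 2.21. The Zg16 fold stayed at 1.40 or more when 1 or 5 such cells were left out of each library and was 2.07 with the mean of cells.

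The other goblet genes differed less at day 2. The log2 folds were -0.41 for Muc2, -0.06 for Fcgbp, -0.17 for Clca1, 0.45 for Tff3, 0.21 for Agr2 and 0.56 for Spink4. With the mean of cells Tff3 was past 2-fold (1.17). Both membrane mucins were lower in pGF, with folds of -0.90 for Muc3 (-0.93 to -0.89) and -0.54 for Muc13 (-0.58 to -0.51). Muc3 fell short of 2-fold and rested on 775 cells with a UMI in pGF and 641 in SPF, the largest of which held 0.694% of its UMIs in pGF and 0.914% in SPF. The mean of cells gave 1217 CPM in pGF and 2482 CPM in SPF, a log2 fold of -1.02. Muc3a, a neighbouring gene with a related sequence, had 89.5 CPM in pGF and 142 CPM in SPF, and reads of the 2 genes may have been split between them.

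Day 2 of DSS was then set against day 0 within each arm. In SPF, Zg16 and Tff3 were at least 2-fold higher at day 2 (log2 folds of 2.68 and 2.33) and Clca1 at least 2-fold lower (-1.95), where 0.676% of 8284 genes were that much higher, 1.33% lower and 2% either. With the mean of cells, however, Zg16 had 609 CPM at day 2 and 764 CPM at day 0, a log2 fold of -0.32, and Tff3 a fold of 0.31, so neither was past 2-fold and Zg16 changed direction. In pGF, Zg16 alone was past 2-fold, higher at day 2 by 1.96 (1.91 to 2.05), and by 0.66 with the mean of cells. Of 8355 genes, 0.706% were at least 2-fold higher there, 1.24% lower and 1.95% either. Muc3 had a fold of -0.29 in pGF and 0.66 in SPF.

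**Figure D4:**
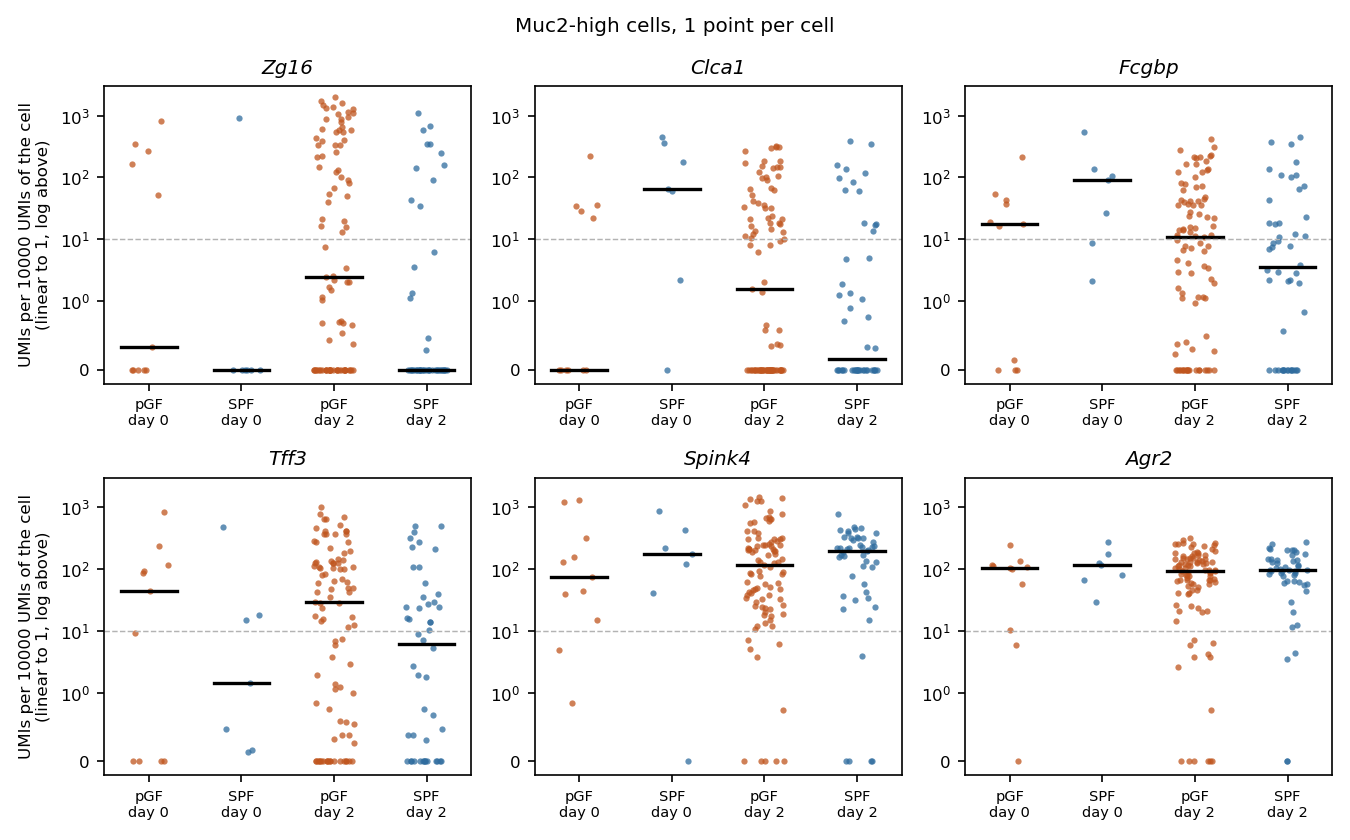
Members in each Muc2-high cell (UMIs per 10000 UMIs of the cell, linear to 1 and log above), 1 point per cell, with the median as a bar and 10 per 10000 as a dashed line. Zg16 ranges from 0 to 1981 and Tff3 from 0 to 984 in pGF day 2. The highest cell of Fcgbp (537) and of Clca1 (441) is in SPF day 0. Spink4 and Agr2 lie above the dashed line in most cells.

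At day 7, with doublets kept, Clca1 was at least 2-fold higher in pGF than in SPF (log2 fold of 3.50) and Muc2 at least 2-fold lower (-1.46), where 4.45% of 9287 genes were that much higher, 7.26% lower and 11.7% either. The SPF values rested on 16 UMIs of Clca1 in 1 cell and on 1 cell with 91.4% of the Muc2 UMIs. Markers of neutrophils summed to 89.5 CPM in the pGF and 49229 CPM in the SPF epithelial gate at that day, with all 5 markers found in SPF and 4 of 5 in pGF. Their part in the result was not tested.

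Other genes of the mucus pathway were read from 7 lists of 68 genes. Of all genes tested, 1.47% and 1.28% were past 2-fold for pGF over SPF at days 0 and 2. For day 2 over day 0 the share was 1.95% in pGF and 2% in SPF. Single calls in a list are not read as a result about that list. None of the secretory transcription factors (6 of 7 passed the filter) and none of the genes of granule release and ion transport (7 or 8 of 9 passed) was past 2-fold in any of the 4 comparisons of days 0 and 2. Of the 8 mucin folding genes, Sdf2l1 (a chaperone cofactor of the endoplasmic reticulum) alone was past 2-fold, lower in pGF than in SPF at day 0 (-1.09). Of the O-glycosylation genes (11 or 12 of 15 passed), B4galnt2, a glycosyltransferase, was lower at day 2 than at day 0 in pGF (-1.32) and in SPF (-1.40), and Galnt7, which starts O-glycans, was higher at day 2 in SPF by 1.05. Of mucus processing genes (5 or 6 of 6 passed), Mep1a, a subunit of the meprin protease that cleaves Muc2, was lower at day 2 in pGF (-1.05). These 4 genes were found in 57 to 800 cells per library, with at most 10.6% of UMIs in 1 cell. Of the other mucins and trefoils 1 of 9 passed, and it was not past 2-fold.

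Among 14 other goblet genes, 10 or 11 passed and 3 were past 2-fold in each comparison, where 1.47% and 1.28% of all genes tested were past it for pGF over SPF at days 0 and 2, and 1.95% in pGF and 2% in SPF for day 2 over day 0. At day 2, Reg4, a lectin of deep crypt secretory cells, had 452 CPM in pGF and 75.3 CPM in SPF (log2 fold of 2.44), and Retnlb, an antibacterial resistin-like protein, 256 CPM in pGF and 113 CPM in SPF (1.12). Ang4, an antibacterial ribonuclease, had 21.6 CPM in pGF and 130 CPM in SPF at day 2 (-2.15), and 264 CPM in pGF and 765 CPM in SPF at day 0 (-1.50). Reg4 had 94.3% of its UMIs in Muc2-high cells in pGF and 90.9% in SPF at day 2. One cell held 58.4% of the SPF day 2 Ang4 UMIs and 77.2% of the pGF day 0 ones, and 1 cell held 66.7% of the pGF day 0 Ccl9 UMIs. At day 0, Ccl6 and Ccl9, both chemokines, were higher in pGF by 1.28 and 1.17. Muc2-high cells held 72.9% of Ccl6 and 30.6% of Ccl9 UMIs in pGF at that day, against 94.4% and 91.7% in SPF. Most Ccl9 UMIs of pGF day 0 thus lay outside Muc2-high cells. Between days, Ang4 was lower at day 2 in pGF (-3.12) and in SPF (-2.47), Reg4 and Retnlb were lower in SPF (-2.52 and -1.21, with 54.8% of Reg4 and 38.0% of Retnlb UMIs in 1 cell at day 0, and 38.4% of Retnlb UMIs in 1 cell at day 2), and Ccl9 was lower in pGF (-1.28). Wfdc2, a protease inhibitor found in 734 pGF day 2 cells, was higher at day 2 in pGF by 1.21. Although it stood in this list, Muc2-high cells held only 5.87% and 0.76% of its pGF UMIs at days 0 and 2. Its level was thus mostly that of other epithelial cells. List medians lay between -0.95 and 0.28, and the median of all genes tested between 0.01 and 0.07.

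Member transcripts were also counted in cells with no UMI of Epcam or Krt8, where they are read as free RNA. The 9 members summed to 18.7, 151 and 33.0 CPM there in pGF at days 0, 2 and 7, and to 8.61, 88.0 and 26.0 CPM in SPF, while in epithelial cells they summed to 10785 and 10592 CPM in pGF and 8562 and 10104 CPM in SPF at days 0 and 2. Free member RNA was highest at day 2 in both arms, when the gate held most barcodes before filtering (1745 in pGF and 1889 in SPF). Cells with some Epcam or Krt8 UMIs, but too few for the gate, had 446 CPM in pGF and 348 CPM in SPF at day 2. T-like cells alone gave 6.26, 134 and 31.4 CPM in pGF and 9.65, 78.5 and 12.3 CPM in SPF at days 0, 2 and 7.

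Zg16 had the most free UMIs of any member in 5 of the 6 libraries. In SPF at day 2 Spink4 was higher, with 161 UMIs against 98 of Zg16. In cells without Epcam and Krt8 it had 7.60, 53.4 and 15.1 CPM in pGF at days 0, 2 and 7, against 2.10, 14.7 and 10.4 CPM in SPF. These rested on 35, 667 and 234 UMIs in pGF and 21, 98 and 343 UMIs in SPF, and 1 pGF day 0 cell held 15 of the 35. Zg16 made up 40.7%, 35.3% and 45.8% of free member UMIs in pGF and 24.4%, 16.8% and 40.2% in SPF, against 4.48% and 18.0% of member UMIs in pGF and 1.13% and 6.67% in SPF epithelial cells at days 0 and 2. In T-like cells it had 46.2 and 14.5 CPM in pGF and 11.5 and 3.62 CPM in SPF at days 2 and 7, a log2 ratio of 2.01 (counting interval 1.22 to 2.93) at day 2 and 2.00 (1.41 to 2.64) at day 7. At day 0, T-like cells held 1 Zg16 UMI in pGF and 4 in SPF, too few to compare. The sum of all 9 members was also higher in pGF T-like cells, with log2 ratios of 0.77 at day 2 and 1.35 at day 7. Over all cells without Epcam and Krt8, the Zg16 log2 ratio was 1.86 at day 2 and 0.53 at day 7. The higher Zg16 of pGF at day 2 was measured in epithelial cells, in T-like cells and in the epithelial barcodes left out for high mitochondrial content. In those barcodes Zg16 had 1090 CPM in pGF and 179 CPM in SPF. These readings share the same libraries, and the T-like one is read as free RNA, so they are not independent of each other.

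**Figure D5:**
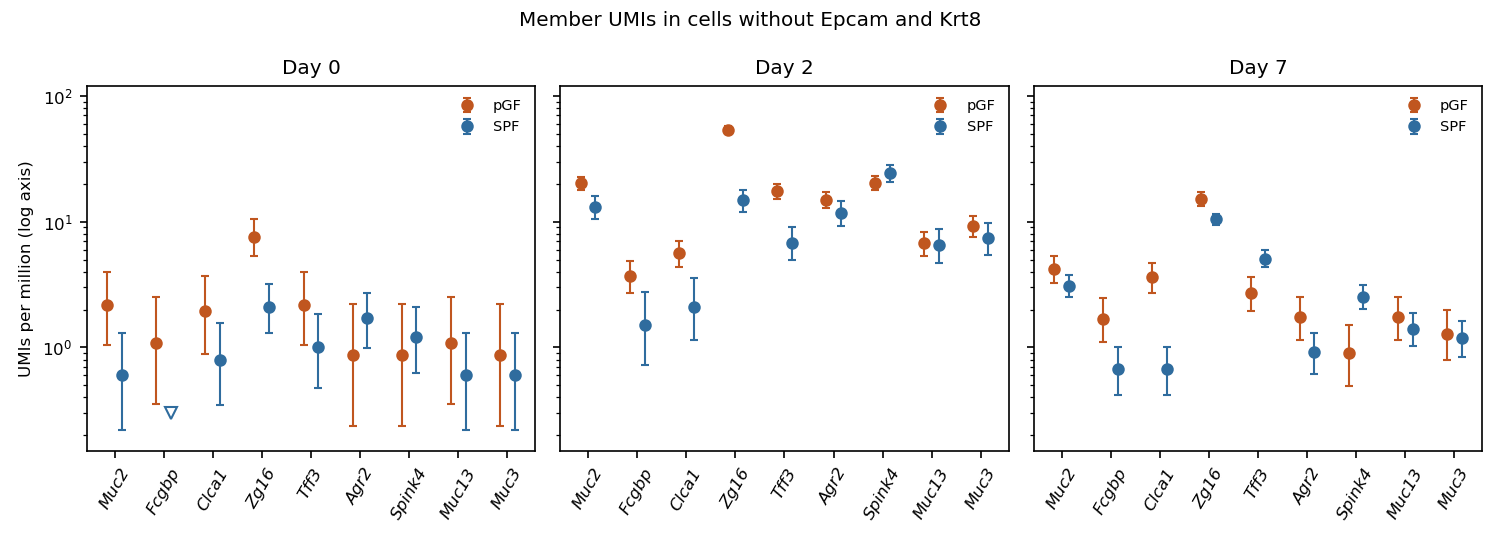
Members in cells with no Epcam or Krt8 UMI (CPM, log axis) at days 0, 2 and 7, pGF left of SPF, with exact Poisson 95% intervals. The triangle is the limit of 3 counts for Fcgbp in SPF day 0, where no UMI was found, and Zg16 at day 2 has 53.4 CPM in the pGF library and 14.7 CPM in the SPF one.

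The free levels of the members were not in the ratio of their levels in gated epithelial cells. Whether the gated cells represent the source of the free RNA was not tested. At day 2 the free level was 2.80% of the epithelial level for Zg16, 2.95% for Clca1 and 2.74% for Tff3 in pGF, and 1.35% for Muc2, 0.988% for Muc13 and 0.713% for Muc3. Fcgbp was at 1.36%, Agr2 at 1.03% and Spink4 at 0.755% there. In SPF day 2 the free level was 2.19% for Zg16, 1.46% for Tff3 and 0.984% for Clca1, and 0.657% for Muc2, 0.651% for Muc13 and 0.305% for Muc3. Fcgbp was at 0.533%, Agr2 at 0.948% and Spink4 at 1.33% in that library. The median over 10 absorptive colonocyte genes was 2.30% in pGF and 1.26% in SPF. Spink4 at SPF day 2 was an exception among genes, since 1 cell without Epcam and Krt8 held 80 of its 161 UMIs. At SPF day 7, neutrophil-like cells held 39.8 CPM of the members and T-like cells 12.3 CPM, so free RNA was not spread evenly over cell types in that library.

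Epithelial barcodes above the mitochondrial limit of 10% (626 in pGF and 1090 in SPF at day 2, 98 and 100 at day 0) held the surface mucins, with lower levels of most goblet genes than in kept cells. Muc3 had 2265 and 1503 CPM in pGF and 2488 and 2051 CPM in SPF at days 0 and 2 there, and Muc13 1306 and 797 CPM in pGF and 1598 and 1050 CPM in SPF. Muc2 had 149 and 358 CPM in pGF and 124 and 516 CPM in SPF, and Agr2 31.4 and 123 CPM in pGF and 52.8 and 79.1 CPM in SPF. Clca1 had 57.6 and 199 CPM in pGF there, against 126 and 190 CPM in kept cells, so it was not lower at day 2. Fcgbp had 149 and 243 CPM in pGF there, against 181 and 270 CPM in kept cells.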

How the data were processed

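The deposited values are raw UMI counts of each gene in each cell barcode, made with Cell Ranger 6.1.2 per the file headers. The submitters' processing notes list mm10, R 4.1.3 and Seurat 4.1.1. Immune receptor data were not analysed here. Cells were kept with at least 200 genes and at most 10% mitochondrial UMIs. Doublets were scored against simulated pairs, 2 for each cell, and the top 0.8% per 1000 barcodes were taken out. UMIs were summed over gated cells, scaled to CPM and compared as log2 of (CPM + 10) for genes that reached 10 CPM in either library, with 2-fold as the call. With 1 library per group no test was made, and intervals (exact Poisson, Clopper-Pearson and conditional binomial, 95%) cover counting error only. The members, lists and comparisons were chosen with earlier results of these data known. Named genes were the members, the listed genes past 2-fold and the 10 closest to Muc2 by mean r among genes found in at least 5% of cells. The 7 lists held 68 genes, of which 1 was not in the feature table. Classes such as T-like were set by marker UMIs and needed 20 cells. Alternatives covered filters, gates, doublets, scaling (TMM), pseudocount, cell averages and left-out cells, and the fold step was tested on simulated data. Sequences are from RefSeq (GRCm38.p6), with promoter windows for 5 of 9 members. Whether counting used strand is not given in the sources used here. Gm15657 overlaps Muc13 and Gm44939 the longer annotation of Zg16, both on the opposite strand. The software was Python 3.11.15 and its packages scikit-learn 1.9.0, matplotlib 3.10.9, pandas 2.3.3, SciPy 1.17.1 and NumPy 2.4.6.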

Additional observations from a re-analysis of the deposited data

Results flagged for a closer look

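For 5 members the day 2 over day 0 difference had opposite signs in the 2 arms, with counting intervals apart from 0 in both. Those intervals leave out the spread between cells. The share of all genes tested with opposite signs is not given here, so the count of 5 is not read as particular to the members. The log2 fold was -0.43 in pGF and 0.75 in SPF for Muc2, 0.55 in pGF and -0.83 in SPF for Fcgbp, and 0.56 in pGF and -1.95 in SPF for Clca1. It was -0.34 in pGF and 0.13 in SPF for Muc13, and -0.29 in pGF and 0.66 in SPF for Muc3. With 1 library per group these differences between arms were not tested. At day 0, 90% of the UMIs of Muc2, Fcgbp and Clca1 lay in 4 or 5 cells, against at least 53 for Muc13 and Muc3. Muc13 in SPF was at -0.03 with no mitochondrial limit.

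Barcodes left out by the gene and mitochondrial limits held member UMIs that the main comparisons do not use, 4717, 18783 and 2447 in pGF and 4281, 26916 and 1723 in SPF at days 0, 2 and 7.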

How the results depend on the processing

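No paired analysis was possible because each group is 1 library. Of the alternative folds of the 9 members, 478 stayed on their side of 2-fold, 20 newly passed it, 4 no longer did, and 2 that were past it in the main analysis changed direction. The 2 are Clca1 in SPF day 2 over day 0 without the 5 cells with most member UMIs (0.21 in place of -1.95) and Zg16 there with the mean of cells (-0.32 in place of 2.68). The cause of the second was not tested. Leaving out 5 cells takes most of the goblet cells of day 0 (11 Muc2-high cells in pGF and 7 in SPF) but few of day 2 (95 and 48), so by construction it raises day 2 over day 0 and says nothing of stability there.

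With the mean of cells, members at least 2-fold higher were 4 (2 in the main analysis) and lower 1 (2) for pGF over SPF at day 0, 2 (1) and 1 (0) at day 2, 0 (2) and 2 (1) for SPF day 2 over day 0, and 0 (1) higher for pGF day 2 over day 0. Without the cell with most member UMIs, an alternative added after seeing the data, they were 2 (1) lower for SPF day 2 over day 0 and 3 (1) higher for pGF day 2 over day 0. Without the 5 such cells they were 1 (2) lower for pGF over SPF at day 0, 6 (2) higher and 0 (1) lower for SPF day 2 over day 0, and 7 (1) higher for pGF day 2 over day 0.

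All genes past 2-fold were 120, 107, 166 and 163 for pGF over SPF at day 0, at day 2, SPF day 2 over day 0 and pGF day 2 over day 0. They were 240, 195, 322 and 352 with a pseudocount of 1 CPM, 45, 36, 53 and 46 with 50 CPM, and 297, 188, 325 and 323 with the mean of cells. A gate with 0 Ptprc UMIs gave 64 for the first.

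The free member sum (18.7, 151 and 33.0 CPM in pGF and 8.61, 88.0 and 26.0 CPM in SPF at days 0, 2 and 7) was 27.0 and 172 in pGF at days 0 and 2 and 13.5, 127 and 30.2 in SPF with no mitochondrial limit. With at least 500 genes it was 12.0 and 138 in pGF at days 0 and 2 and 71.8 and 23.2 in SPF at days 2 and 7. Over all cells outside the gate it was 11.0 and 260 in pGF at days 0 and 2 and 6.88, 201 and 29.2 in SPF. Without Krt18, Krt19 and Lgals4 UMIs it was 13.0 and 136 in pGF at days 0 and 2 and 65.7 and 21.1 in SPF at days 2 and 7. T-like cells alone gave 6.26 and 134 in pGF at days 0 and 2 and 78.5 and 12.3 in SPF at days 2 and 7. With doublets kept SPF day 7 gave 29.1. Leaving out a replicate was not possible.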
